A study of Mus musculus with 6 samples.

Results

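The solute carrier genes described here are the symbols beginning with Slc and a digit that had a mean of at least 1 FPKM (fragments scaled to gene length and library total) over 6 RNA-seq libraries of mouse Th9 cells, without the families Slc1, Slc2, Slc3, Slc7, Slc38 and Slc40. Of 306 such symbols among 21233 genes, 41 belonged to the families left out and 125 lay under the threshold, which left 140 genes of 37 families. The threshold used the level over all libraries and not the difference between groups. All 140 had enough counts to be tested, but in 5 of them, Slc9a5, Slc12a8, Slc22a17, Slc26a10 and Slc46a1, the mean of 1 group lay under 1 FPKM. Slc4a8, Slc9b2 and Slc66a1 lay just below the threshold at 0.837, 0.903 and 0.976 FPKM. Slc26a10, Slc9a5 and Slc22a17 lay just above it at 1.01, 1.06 and 1.09 FPKM. Slc4a1ap entered by its symbol, although its product is an adaptor protein and not a carrier.

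Solute carriers are membrane proteins that move ions, metals, vitamins, fuels, nucleosides and metabolites across the plasma membrane and the membranes of organelles. They are grouped in numbered families by sequence, with a family number after the prefix Slc in the mouse symbol. Members of one family often share a kind of cargo: the Slc25 carriers exchange metabolites across the inner mitochondrial membrane, Slc30 proteins move zinc out of the cytosol and Slc39 proteins move it in. In an activated T cell, carriers of lactate, citrate, nucleotides and vitamins serve growth and division.

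The libraries were made from Th9 cells of the mouse, CD4 T helper cells named for secreting interleukin 9. There were 3 libraries of control cells, given no sorafenib, and 3 of cells treated with sorafenib, an inhibitor of RAF kinases and of several kinase receptors. The labels give no dose, time, strain, age or sex, and no vehicle for the controls. The labels do not say whether replicates were separate cultures or mice, so the spread that p-values rest on is that between these samples and may be technical. Total counts were 36981476 to 38126521 per library. Cd4, Cd3e, Gata3, Irf4 and Il9 were detected in every library, and Il9 had a mean of 192 ± 18.8 CPM in the controls and of 266 ± 15.4 CPM with sorafenib. Of the 8 T cell and Th9 genes listed, 2 were called higher, Il9 and Gata3, and 2 lower, Cd3e and Cd3g. Cd3e fell 1.24-fold and Cd3g 1.31-fold (adjusted p of 0.0129 and 0.00437 by edgeR). Of the CD8 T cell markers, Cd8a had 7 to 23 counts, while Cd8b1 had 223, 232 and 240 counts in the control libraries and 416, 349 and 328 in the sorafenib libraries and rose 1.48-fold (adjusted p = 0.014 by edgeR). Markers of B cells moved with treatment: 6 of 6 tested members rose, and the summed level of the 7 listed genes was 7.64 to 16.4 CPM (counts relative to the library total, scaled with TMM factors) in control and 30 to 32.6 CPM with sorafenib. Of the macrophage, monocyte and dendritic cell list 2 of 7 measured genes had counts enough to be tested, 1 of them rose, and the sum was 1.31 to 2.15 CPM in the controls and 3.63 to 5.02 CPM with sorafenib. Csf1r had 0 counts in every control library and Ms4a1, a B cell marker, had 0 to 2 counts in any library. Ly6g of the neutrophil list had 125, 120 and 125 counts in the control libraries and 1, 2 and 0 in the sorafenib libraries, while Elane had 0 counts in 5 of 6 libraries. Mpo, the other tested gene of that list, did not fall with Ly6g. It had 11, 5 and 14 counts in the control libraries and 20, 10 and 8 in the sorafenib libraries (adjusted p = 0.802 by edgeR). In bulk RNA fewer cells of a type and less RNA per cell cannot be told apart, and the part of these other cells in the values below was not tested.

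Of the 140 carriers, 15 rose and 20 fell with sorafenib (edgeR quasi-likelihood test, Benjamini-Hochberg adjusted over all 13255 genes tested, threshold 0.05). That is 10.7% and 14.3% of the members, where 8.51% of all tested genes rose and 9.43% fell. In either direction 25% of the members were called, against 17.9% of all tested genes and 19.2% of tested genes with a mean of at least 1 FPKM (8.64% higher and 10.6% lower). Among the 135 carriers at 1 FPKM or more in both groups, 14 rose and 18 fell. Most changes were small: 11 members, or 7.86%, were called with at least a 1.5-fold difference, against 8.32% of all tested genes. Among the 10065 tested genes with a mean of at least 1 FPKM, 676 were called with such a difference, a smaller share than that of the members. However, the 11 members include Slc12a8 and Slc26a10, which reached 1 FPKM in 1 group only. Whether the shares differ without such genes was not tested. The median log2 fold change of the members was -0.03, beside -0.01 over all tested genes. Rises were led by Slc12a8, the zinc exporter Slc30a1, Slc43a3, the choline transporter Slc44a1, the glycine transporter Slc6a9 and the mitochondrial carrier Slc25a45. Falls were led by Slc26a10, the magnesium transporter Slc41a2, the zinc and manganese importer Slc39a8 and the peptide transporter Slc15a2.

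**Figure D1:**
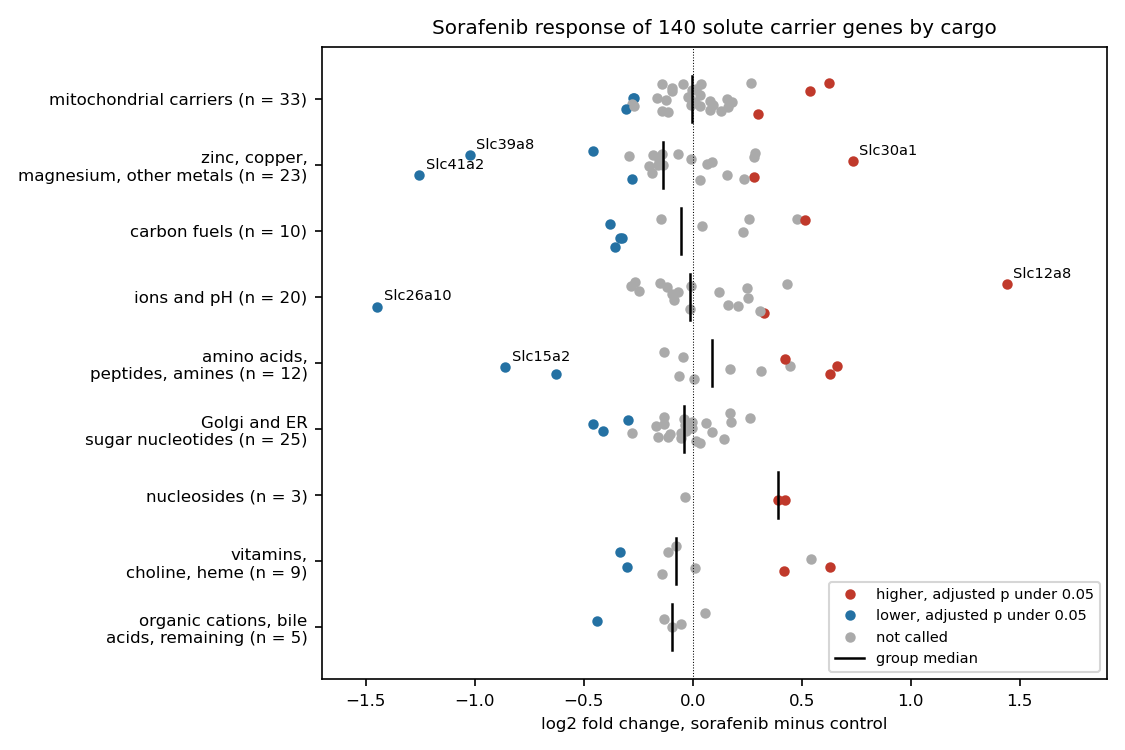
Each point is 1 of the 140 carriers, placed by its log2 fold change (sorafenib minus control, x axis) within its group of families (y axis), with black bars for group medians. Group medians lie between -0.13 for metals and 0.09 for amino acids, peptides and amines, apart from the 3 nucleoside carriers at 0.39, and single genes such as Slc12a8 (1.44) and Slc26a10 (-1.45) lie far from their group.

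The groups did not overlap for 34 of the 35 called members, Slc15a2 being the exception. They did not overlap for 59 members in all, or 42.1%, against 36.3% of all tested genes. Of the 10065 tested genes with a mean of at least 1 FPKM it was 3787. A set of 14 members kept its call under all 17 alternative fits: Slc6a9, Slc12a8, Slc19a2, Slc25a45, Slc29a3, Slc30a1, Slc43a3, Slc44a1 and Slc66a3 as higher, and Slc26a10, Slc27a4, Slc30a4, Slc39a8 and Slc41a2 as lower. Control replicate 2 stood apart from the other libraries. Its log2 CPM correlated at 0.986 with the mean of the other 2 controls, where the other 5 libraries reached 0.991 to 0.995. Its deviation from the other controls fell with transcript length over the 140 members (Spearman's rho -0.39), while that of control replicate 1 rose with it (0.42) and that of control replicate 3 had a rho of 0.06. Each deviation was taken from the mean of the other 2 controls. These trends therefore depend on each other and cannot tell which library differs. The median absolute log2 deviation of the members was 0.138 for control replicate 2, 0.129 for control replicate 1 and 0.0858 for control replicate 3. Without control replicate 2, 22 members rose and 35 fell, against a background of 15% and 16.8% of genes. All 35 genes called with all libraries were among these with the same direction. Without control replicate 1, 14 rose and 14 fell (background 7.21% and 8.05%), and without control replicate 3, 11 and 8 (5.71% and 5.95%). Without sorafenib replicate 1 the counts were 10 and 6 (4.26% and 5.25%), without replicate 2, 9 and 12 (5.55% and 5.89%), and without replicate 3, 9 and 6 (4.12% and 5.04%). The split of higher and lower calls moved with the processing. Scaling to total counts alone gave 19 higher and 9 lower (11.3% and 6.23% of all genes) and limma-trend on unfiltered log2(FPKM + 1), where test, filter and scale all differ, gave 12 and 6 (4.25% and 2.45%). With total counts the calls of 11 lower members were lost: Slc15a2, Slc16a6, Slc22a17, Slc25a1, Slc25a22, Slc25a30, Slc30a9, Slc35e1, Slc35g1, Slc44a2 and Slc52a2. Losses listed below by left-out library are not the only ones. Of the 17 alternatives, Slc52a2 lost its call in 12, Slc22a17, Slc25a22 and Slc25a30 in 11 and Slc15a2 in 10. Among these were the replicate number as a block and every limma-trend fit on FPKM.

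**Figure D2:**
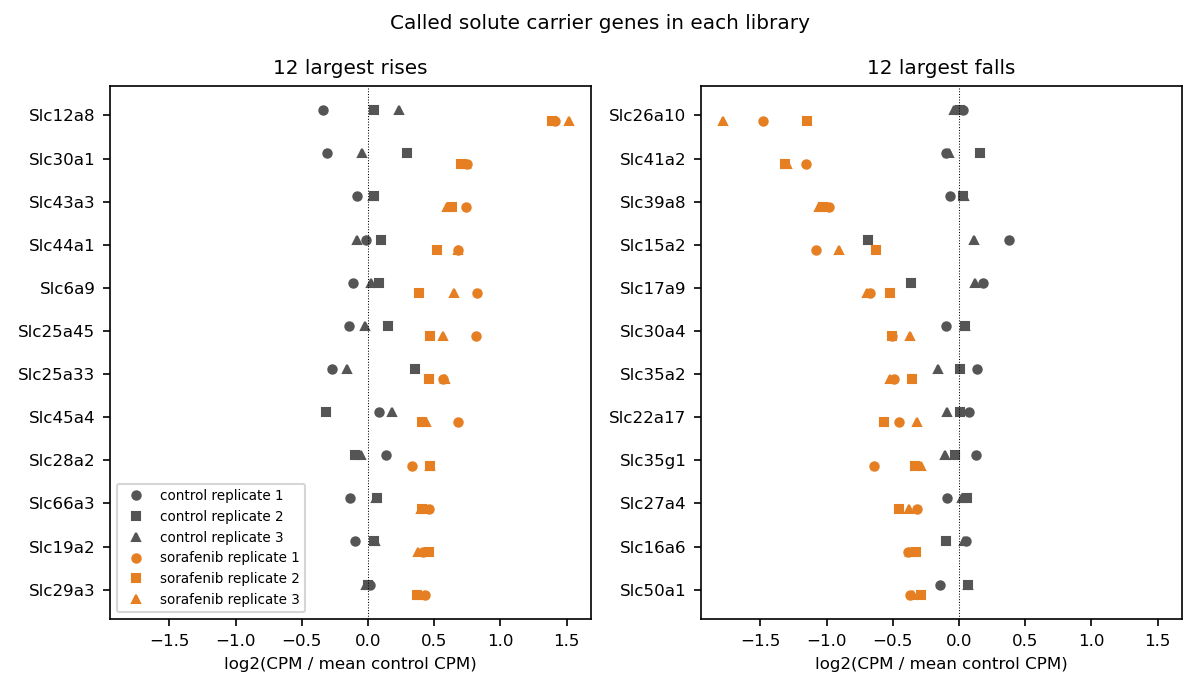
Called carriers with the largest changes, 12 in each direction, in each library as log2 of CPM over the mean control CPM (x axis); gray symbols are the 3 control and orange symbols the 3 sorafenib libraries. Control and sorafenib libraries separate for every gene shown but Slc15a2, where control replicate 2 lies among the sorafenib libraries.

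By symbol the Slc25 family held 33 members, among them the 3 of the 140 carriers with the highest FPKM. Mitochondrial carriers under other symbols, such as the uncoupling protein gene Ucp2 at 266 FPKM, were not counted. Slc25a5 and Slc25a4, the ADP/ATP translocases that exchange mitochondrial ATP for cytosolic ADP, had a mean of 409 and 154 FPKM, and the phosphate carrier Slc25a3 had 334 FPKM. In each library these 3 made up 72.8% to 77.5% of the summed FPKM of the 33 genes. The 33 genes made up 49.4% to 53.6% of that of all 140 carriers. Slc25a5 lay above Slc25a3, and Slc25a3 above Slc25a4, in all 6 libraries. Slc25a4 and the next in order, the lactate exporter Slc16a3 at 148 FPKM, changed places between libraries.

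None of the 3 abundant carriers passed the test. Slc25a5 had 485, 656 and 515 CPM in the control libraries and 530.3, 497 and 506 CPM in the sorafenib libraries. Its highest value was in control replicate 2 and the groups overlapped (log2 fold change -0.11, 95% interval -0.36 to 0.13, adjusted p = 0.548 by edgeR). For Slc25a3 the log2 fold change was 0.01 with an interval of -0.18 to 0.20, and for Slc25a4 -0.09 with -0.31 to 0.13. Close copies of the translocase genes may share reads, which leaves their separate values uncertain.

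Of the 33 carriers, 3 rose and 3 fell, or 18.2%, and the median log2 fold change was -0.0050. Of all tested genes 17.9% were called, and of those with a mean of at least 1 FPKM 19.2%. For 26 of the 27 uncalled carriers the 95% interval lay within a 1.5-fold change in either direction. Slc25a45 had 10.1, 12.3 and 11 CPM in the control libraries and 19.6, 15.4 and 16.4 CPM in the sorafenib libraries. Every sorafenib library lay above every control library, a 1.54-fold rise (log2 fold change 0.63 ± 0.12 SE, adjusted p = 0.00559), and this was the 1 member of the family past 1.5-fold. Slc25a33, which carries pyrimidine nucleotides into mitochondria, had 6.14, 9.5 and 6.64 CPM in the controls against 11, 10.2 and 11.1 CPM with sorafenib. The control libraries were spread over a wide range with replicate 2 highest, and the rise was 1.45-fold (adjusted p = 0.0417).

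Slc25a1 exports citrate, from which the cytosol makes acetyl-CoA for lipid synthesis. It had 70.3, 72.4 and 69.9 CPM in the control libraries and 59.5, 59.5 and 57.5 CPM in the sorafenib libraries, the highest level among the called members of the family, and fell 1.2-fold (log2 fold change -0.27 ± 0.07 SE, adjusted p = 0.0164) with groups apart. The glutamate carrier Slc25a22 fell 1.21-fold, with a mean of 46.2 ± 3.7 CPM in the controls and of 38.2 ± 0.791 CPM with sorafenib (adjusted p = 0.0392), and Slc25a30 fell 1.24-fold (adjusted p = 0.0369). Carriers of related cargo did not pass: the aspartate and glutamate carriers Slc25a12 and Slc25a13 had log2 fold changes of -0.14 and -0.01, the oxoglutarate carrier Slc25a11 -0.14, the iron importers Slc25a28 and Slc25a37 0.13 and 0.16, and the carnitine carrier Slc25a20 -0.005. The glycine carrier Slc25a38 (0.27, adjusted p = 0.107) and the pyrimidine nucleotide carrier Slc25a36 (-0.27, adjusted p = 0.174) came nearest by unadjusted p, and both were called without control replicate 2 (adjusted p = 0.0157 and 0.00196). Among 23 partner genes, which insert carriers into the inner membrane, carry pyruvate or calcium or form outer membrane channels, 1 was called, as lower: Sfxn3, a sideroflexin, had a mean of 80.4 ± 3.35 CPM in the controls and of 68.9 ± 1.43 CPM with sorafenib (adjusted p = 0.0434). The mitochondrial pyruvate carrier genes Mpc1 and Mpc2 had log2 fold changes of 0.22 and -0.01, and the uncoupling protein gene Ucp2 -0.08, with adjusted p of 0.265, 0.967 and 0.469. Over the partner genes of all groups, 9 of 102 tested rose and 7 fell, beside 8.51% and 9.43% of all tested genes.

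Calls in this family other than that of Slc25a45 depended on single libraries. Those of Slc25a22, Slc25a30 and Slc25a33 were lost without control replicate 1 or 3 or any 1 sorafenib library, and that of Slc25a1 without control replicate 3 or any 1 sorafenib library, with adjusted p up to 0.332, 0.294, 0.148 and 0.109 over all alternatives; with total counts 4 rose and 0 fell, and Sfxn3 was lost without control replicate 3 or any 1 sorafenib library (adjusted p up to 0.24).

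**Figure D3:**
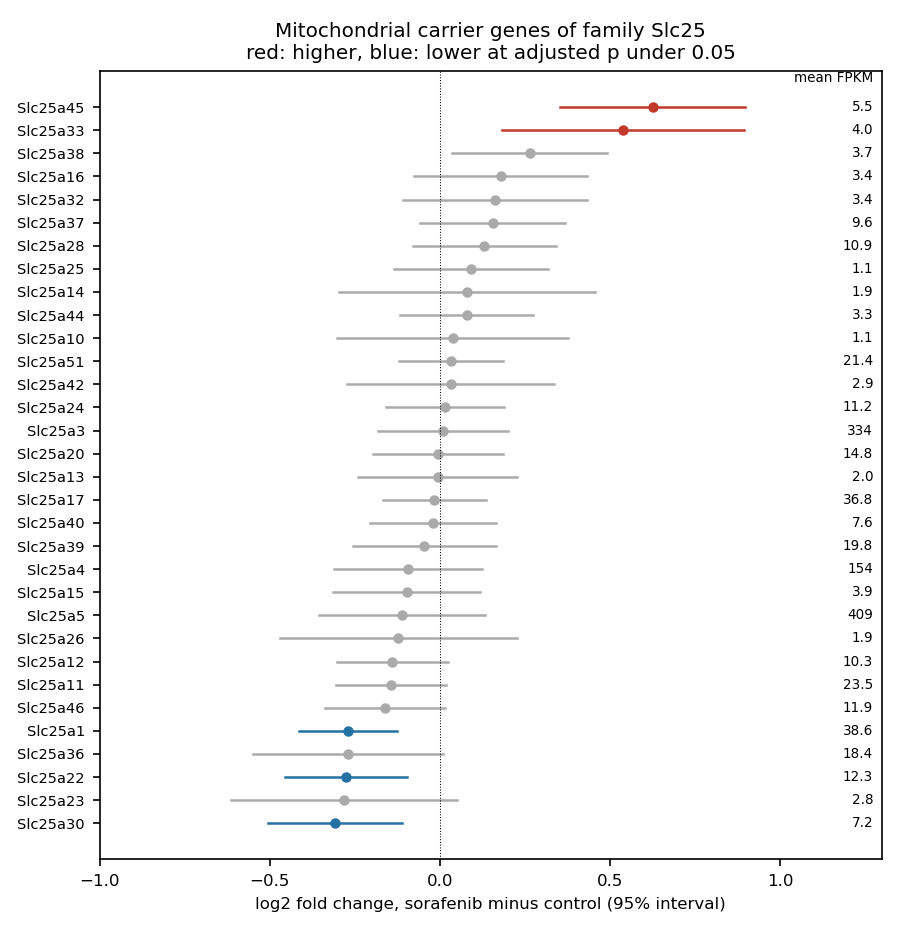
Log2 fold change of the Slc25 carriers but 1 of the 33 (x axis, sorafenib minus control, points with 95% intervals from the edgeR fit), ordered by size, with mean FPKM over 6 libraries printed at the right. Slc25a5, Slc25a3 and Slc25a4, the most abundant of the carriers plotted, have intervals that include 0. The called rises of Slc25a45 and Slc25a33 (red) lie at the top and the 3 called falls (blue) among the lowest 5.

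Metal transporters changed in both directions. Slc30a1, the exporter that carries zinc out across the plasma membrane, rose, while Slc39a8, an importer of zinc and manganese, Slc30a4, which loads zinc into vesicles, Slc30a9, a mitochondrial zinc transporter, and Slc41a2, a magnesium transporter, fell. The importer Slc39a4 rose by a small amount. Of 23 metal carriers 2 rose and 4 fell, 26.1% in all beside 17.9% of tested genes, with a median log2 fold change of -0.13.

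Slc30a1 had 16.7, 25.4 and 20.1 CPM in the control libraries and 34.9, 33.9 and 34.7 CPM in the sorafenib libraries. The sorafenib libraries lay close together above every control library, and the rise was 1.66-fold (log2 fold change 0.73 ± 0.13 SE, adjusted p = 0.00358). Slc39a8 had 46.6, 49.97 and 50.2 CPM in the control libraries and 24.8, 23.9 and 23.4 CPM in the sorafenib libraries. Levels within each group were tight and the groups were far apart, with a 2.03-fold fall (log2 fold change -1.02 ± 0.08 SE, adjusted p = 1.92e-05), the smallest adjusted p of all members. For Slc41a2 the libraries held 16.8, 20.1 and 17 CPM in the controls against 8.06, 7.22 and 7.3 CPM with sorafenib. No libraries overlapped, and the fall was 2.38-fold (log2 fold change -1.25 ± 0.11 SE, adjusted p = 5.55e-05). Slc30a4 fell 1.37-fold, with 52.4, 58.2 and 58.1 CPM in the controls against 39.7, 39.6 and 43.5 CPM with sorafenib (adjusted p = 0.00272). Slc30a9, the most abundant of the called metal carriers per length at 35.2 FPKM, fell 1.21-fold, with a mean of 132 ± 7.34 CPM in the controls and of 109 ± 4.91 CPM with sorafenib (adjusted p = 0.0206). Slc39a4 rose 1.21-fold, with a mean of 19.4 ± 0.364 CPM in the controls and of 23.6 ± 1.36 CPM with sorafenib (adjusted p = 0.0432).

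**Figure D4:**
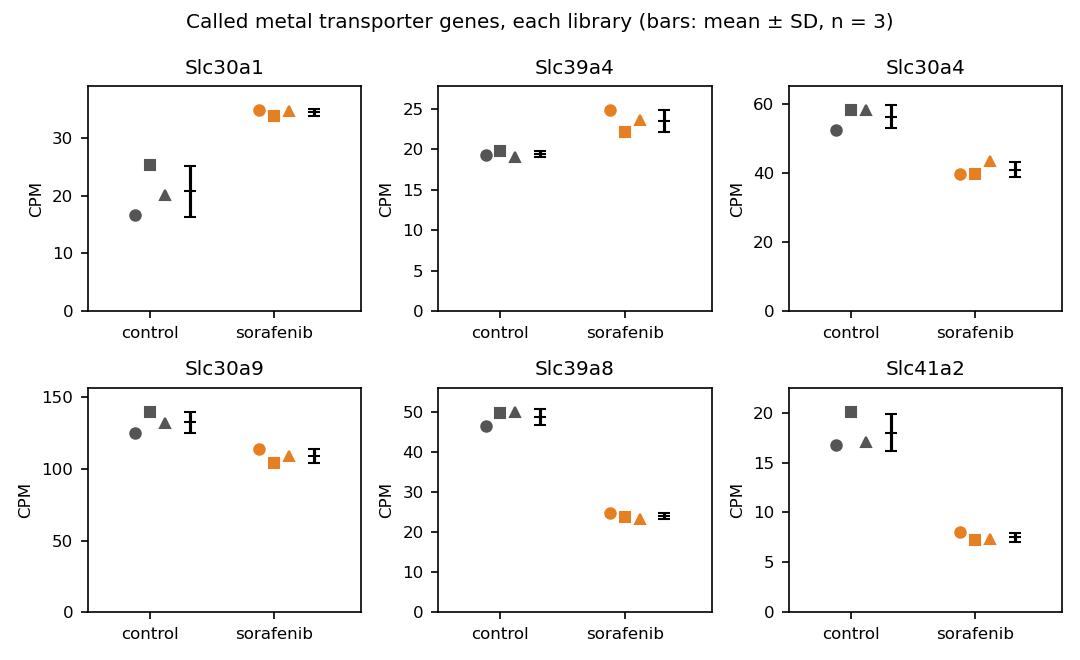
CPM (y axis, from 0) of the 6 called metal carriers in each control and sorafenib library, with mean ± SD (n = 3) beside the points. Slc30a1 and Slc39a4 lie higher and Slc30a4, Slc30a9, Slc39a8 and Slc41a2 lower in all 3 sorafenib libraries than in any control library.

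The metal carriers highest per length did not pass the test. Slc39a7, which releases zinc from the endoplasmic reticulum, had 50.04 FPKM and a log2 fold change of -0.01 (95% interval -0.18 to 0.16), and Slc39a1 had 41.3 FPKM and 0.09 (-0.08 to 0.26). Slc39a3 had a log2 fold change of 0.28 (adjusted p = 0.0511) and was called higher in 7 of 17 alternatives, among them upper-quartile and total-count scaling, DESeq2, both filtered FPKM fits and the fit without control replicate 2. The metallothionein genes Mt1 and Mt2, whose products bind zinc and copper, were not called: Mt1 had 924, 1276 and 774 CPM in the control libraries and 714, 863 and 759.7 CPM in the sorafenib libraries, with the groups overlapping (adjusted p = 0.174), and Mt2 had a log2 fold change of -0.36 (adjusted p = 0.18). Mtf1, the zinc-sensing transcription factor, had 0.18 (adjusted p = 0.166). Of 14 partner genes 1 rose and 2 fell, beside 8.51% and 9.43% of all tested genes. The magnesium transport gene Cnnm4 rose 1.32-fold, the copper ATPase gene Atp7b fell 1.46-fold and the magnesium transporter gene Nipa2 fell 1.35-fold (adjusted p of 0.0141, 0.00698 and 0.00225).

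Without control replicate 2, 4 of the 23 metal carriers rose and 11 fell, where 15% and 16.8% of all genes did in that fit, the 9 added calls being Slc11a2, Slc30a7, Slc39a1, Slc39a3, Slc39a6, Slc39a10, Slc39a13, Slc39a14 and Slc41a1. The calls of Slc30a9 (without control replicate 3 or any 1 sorafenib library) and Slc39a4 (also without control replicate 1) were lost, with adjusted p up to 0.106 and 0.172 over all alternatives, as was that of Cnnm4 without sorafenib replicate 1 or 3 (up to 0.0814), and Atp7b was lost on FPKM (up to 0.117).

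Metal-responsive transcription is known to act through the metal response element, a short motif bound by Mtf1 and found in metallothionein promoters and in that of Slc30a1. RefSeq promoter windows of 300 bases (250 before to 50 after the start, build GRCm38.p6) were searched on both strands for its core, TGCACNC or TGCGCNC. The 3 windows printed show the oppositely called zinc carriers with the most matches and a metallothionein gene for comparison; capitals mark matches, which on the opposite strand read as the reverse complement. They were chosen after the values were seen.
Slc30a1, chr1:191906531-191906830, plus strand: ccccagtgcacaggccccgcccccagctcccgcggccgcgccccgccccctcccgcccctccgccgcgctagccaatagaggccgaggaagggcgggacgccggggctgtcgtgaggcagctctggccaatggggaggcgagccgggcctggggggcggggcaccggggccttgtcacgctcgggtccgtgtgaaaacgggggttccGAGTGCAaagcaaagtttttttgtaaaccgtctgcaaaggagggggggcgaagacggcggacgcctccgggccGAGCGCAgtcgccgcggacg
Slc30a4, chr2:122702614-122702913, minus strand: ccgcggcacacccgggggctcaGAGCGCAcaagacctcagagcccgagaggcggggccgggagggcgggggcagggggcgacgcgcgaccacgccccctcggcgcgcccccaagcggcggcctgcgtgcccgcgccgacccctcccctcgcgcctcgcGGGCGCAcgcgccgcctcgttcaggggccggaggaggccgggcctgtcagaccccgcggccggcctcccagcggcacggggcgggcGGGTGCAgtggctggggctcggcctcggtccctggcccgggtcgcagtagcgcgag
Mt1, chr8:94178839-94179138, plus strand: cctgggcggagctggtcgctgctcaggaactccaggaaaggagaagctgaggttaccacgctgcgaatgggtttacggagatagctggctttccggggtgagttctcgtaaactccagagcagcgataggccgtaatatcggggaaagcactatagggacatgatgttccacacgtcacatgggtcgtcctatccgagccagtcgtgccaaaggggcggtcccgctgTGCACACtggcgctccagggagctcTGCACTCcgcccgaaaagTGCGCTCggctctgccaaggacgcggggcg

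Slc30a1, which rose, held 2 matches and Slc30a4, which fell, held 3, all on the opposite strand, and Mt1, which was not called, held 3 on the forward strand. Over all 32851 windows, 25.7% held at least 1 match, 7.11% at least 2 and 1.97% at least 3. Windows were found for 19 of the 23 metal carriers, and 11 of these held a match in at least 1 window: 1 of 1 that rose, 3 of 4 that fell and 7 of 14 not called. Carriers with matches were thus found in both directions. Some of these genes had more than 1 window, so the counts by gene and the shares by single window are unlike measures. A match is a description of the letters and not a bound site.

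In families with carriers of fuels, taken by family number, the calls were mostly lower. Of 10 members, 1 rose and 4 fell, 50% in all beside 17.9% of tested genes. Log2 fold changes were positive for 5 and negative for 5. Not all members carry fuels, as with the myo-inositol transporter Slc5a3. Slc16a3, which exports lactate with a proton and is the most abundant carrier outside family Slc25, had 565, 660.3 and 601 CPM in the control libraries and 501, 470.3 and 487 CPM in the sorafenib libraries. The groups did not overlap and the fall was 1.25-fold (log2 fold change -0.32 ± 0.08 SE, adjusted p = 0.0208). Slc16a1, the other main lactate carrier of T cells, had a mean of 166 ± 7.82 CPM in the controls and of 149.6 ± 1.7 CPM with sorafenib (adjusted p = 0.156). Bsg and Emb, whose glycoprotein products escort these lactate carriers to the membrane, both fell: Bsg had 956, 1204 and 1058 CPM in the control libraries and 795, 715 and 753 CPM in the sorafenib libraries, a 1.42-fold fall, and Emb fell 1.39-fold (adjusted p of 0.00628 and 9.12e-04). They were the 2 called of 7 tested partner genes, where 9.43% of all tested genes fell.

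Slc27a4, a fatty acid transport protein with acyl-CoA synthetase activity, had 50.3, 55.9 and 54.5 CPM in the controls against 42.9, 39.2 and 41.3 CPM with sorafenib. All sorafenib libraries were lower, a 1.3-fold fall (adjusted p = 0.00641). Slc50a1, the sugar transporter of the SWEET family, fell 1.26-fold with a mean of 67.7 ± 5.64 CPM in the controls and of 53.6 ± 1.65 CPM with sorafenib (adjusted p = 0.0147), and Slc16a6 of the monocarboxylate family fell 1.28-fold (adjusted p = 0.0087). Slc45a4 rose 1.43-fold at a low level, with 10.6, 8.04 and 11.4 CPM in the controls against 16.1, 13.3 and 13.6 CPM with sorafenib (adjusted p = 0.0298). The myo-inositol transporter Slc5a3 had 40.5, 23.5 and 29.4 CPM in the controls against 40.9, 44.9 and 44.5 CPM with sorafenib, where control replicate 1 lay close to the lowest sorafenib library (adjusted p = 0.0657). The calls of Slc16a3 (without control replicate 3 or any 1 sorafenib library), Slc50a1 (without control replicate 3 or sorafenib replicate 1 or 3), Slc16a6 (without sorafenib replicate 1 or 3) and Slc45a4 (without any 1 sorafenib library) were lost, with adjusted p up to 0.107, 0.0818, 0.175 and 0.146 over all alternatives, and Slc5a3 was called in 4 of 17 alternatives: without control replicate 1, with the replicate block, by DESeq2 and by limma-voom.

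Ion and pH carriers held the largest rise and the largest fall of all members, both at low levels. Slc12a8 of the cation and chloride cotransporter family had 2.33, 3.05 and 3.46 CPM in the controls against 7.85, 7.75 and 8.45 CPM with sorafenib. Its sorafenib libraries lay well above all controls, a 2.72-fold rise (log2 fold change 1.44 ± 0.17 SE, adjusted p = 2.61e-04). Slc26a10 of the anion exchanger family had 6.38, 6.27 and 6.08 CPM in the controls against 2.24, 2.82 and 1.81 CPM with sorafenib. It fell 2.72-fold (log2 fold change -1.45 ± 0.18 SE, adjusted p = 4.56e-04), and with 1.45 ± 0.0791 FPKM in the controls and 0.561 ± 0.125 FPKM with sorafenib it met the threshold of the gene set through its control level alone. Slc12a8, with 0.602 ± 0.114 FPKM in the controls and 1.73 ± 0.0822 FPKM with sorafenib, met it through its sorafenib level. Slc12a2, the cotransporter that brings sodium, potassium and chloride into the cell, rose 1.26-fold with a mean of 22.9 ± 2.2 CPM in the controls and of 28.7 ± 1.11 CPM with sorafenib (adjusted p = 0.0324).

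The other 17 of the 20 ion carriers were not called. The called share was 15%, beside 17.9% of all tested genes and 19.2% of those with a mean of at least 1 FPKM. Potassium and chloride cotransporters that carry ions out, Slc12a4 and Slc12a7, had log2 fold changes of -0.25 and -0.28, with adjusted p of 0.0501 and 0.101, and Slc12a4 was called lower in 4 of 17 alternatives. Slc4a7, a sodium bicarbonate cotransporter, had 144, 98.5 and 124 CPM in the controls against 97.3, 104 and 104 CPM with sorafenib (adjusted p = 0.155), and the phosphate importers Slc20a1 and Slc20a2 had 0.16 and 0.25. Among 13 partner genes 2 were called, both higher, beside 8.51% of all tested genes. Atp1b1 encodes a subunit of the sodium pump, which makes the gradient many carriers use. It had 1.77, 1.68 and 1.17 CPM in the controls against 5.9, 4.85 and 5.52 CPM with sorafenib, a 3.51-fold rise (adjusted p = 2.11e-04). Atp1b3, the more abundant β subunit gene, had a mean of 189.5 ± 8.52 CPM in the controls and of 169.5 ± 4.01 CPM with sorafenib (adjusted p = 0.124). The Slc12a2 call was lost without control replicate 3 or any 1 sorafenib library (adjusted p up to 0.135 over all alternatives), and without control replicate 2 the group had 2 rises and 6 falls among 20, beside 15% and 16.8% of all genes in that fit, with Slc4a7, Slc9a8, Slc12a4 and Slc12a7 among those added.

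Families that carry amino acids, peptides and amines, outside the main amino acid transporter families, had 3 rises and 2 falls among 12 members, 41.7% beside 17.9%. Slc6a9, which takes up glycine with sodium and chloride, had 19.4, 22.1 and 21.2 CPM in the control libraries and 37, 27.4 and 32.7 CPM in the sorafenib libraries. Sorafenib libraries were all higher, a 1.55-fold rise (log2 fold change 0.63 ± 0.11 SE, adjusted p = 0.00378). Slc43a3, whose product has been described as a carrier of purine nucleobases although its family is known for amino acids, had 30.7, 33.6 and 33.3 CPM in the controls against 54.5, 50.7 and 49.3 CPM with sorafenib. Its groups were clearly apart, with a 1.58-fold rise (log2 fold change 0.66 ± 0.08 SE, adjusted p = 3.02e-04). Slc66a3, a protein of the PQ-loop family, rose 1.34-fold with a mean of 24.9 ± 1.97 CPM in the controls and of 33.4 ± 0.809 CPM with sorafenib (adjusted p = 0.00656). Slc17a9, which fills vesicles with ATP for release, had 69.4, 47.6 and 66.5 CPM in the controls against 38.3, 42.5 and 37.8 CPM with sorafenib. It fell 1.55-fold (adjusted p = 0.00713), with control replicate 2 the lowest control. The peptide transporter Slc15a2 had 18.4, 8.83 and 15.3 CPM in the controls against 6.7, 9.21 and 7.58 CPM with sorafenib, so control replicate 2 lay within the range of the sorafenib libraries (adjusted p = 0.0292).

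The taurine transporter Slc6a6, the most abundant of the group at 22.5 FPKM, had -0.13 (adjusted p = 0.326), and the lysosomal carriers of histidine and peptides Slc15a3 and Slc15a4 had 0.17 and -0.04. Of 5 tested partner genes of the lysosomal membrane 0 were called by edgeR, DESeq2 or limma-voom. An unadjusted p under 0.05 in edgeR was found for 2 of them, beside 4096 of all 13255 tested genes. The call of Slc15a2 was lost without control replicate 1 or 3 or sorafenib replicate 1 or 3 and that of Slc17a9 without sorafenib replicate 1 (adjusted p up to 0.255 and 0.156 over all alternatives). With all libraries Slc15a2 also lost it with no filter, with the replicate block and in every limma-trend fit.

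Families with nucleotide sugar carriers of the Golgi and endoplasmic reticulum, which feed glycosylation, were taken by family number and held few calls. Not all members carry nucleotide sugars, as with the glucose 6-phosphate carrier Slc37a4. Of 25 members of families Slc33, Slc35 and Slc37, 3 were called, all lower, or 12% beside 17.9%. Slc35a2, which brings UDP-galactose into the Golgi, had 49.4, 45.1 and 40.4 CPM in the controls against 32, 35.1 and 31.3 CPM with sorafenib. The groups did not overlap, and the fall was 1.37-fold (log2 fold change -0.46 ± 0.09 SE, adjusted p = 0.00673). Slc35e1 fell 1.23-fold with a mean of 115 ± 6.38 CPM in the controls and of 94 ± 4.06 CPM with sorafenib and Slc35g1 fell 1.33-fold with a mean of 28.2 ± 2.32 CPM in the controls and of 21.2 ± 2.74 CPM with sorafenib (adjusted p of 0.0157 and 0.0263). Carriers of other nucleotide sugars had small differences that did not pass: CMP-sialic acid (Slc35a1, -0.0049), UDP-N-acetylglucosamine (Slc35a3, -0.03), GDP-fucose (Slc35c1, 0.17) and the sulphate donor PAPS (Slc35b2, -0.10), all as log2 fold changes. Slc37a4, the glucose 6-phosphate carrier of the endoplasmic reticulum and the most abundant of the group at 27.8 FPKM, had 0.18 (adjusted p = 0.144). It was called higher in 5 of 17 alternatives: with total counts, in every limma-trend fit and without control replicate 2 (adjusted p = 0.00446 by edgeR).

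Enzymes that make nucleotide sugars and PAPS moved both ways. Of 13 partner genes 3 were higher and 1 lower, beside 8.51% and 9.43% of all tested genes. Gne, the rate-limiting enzyme of sialic acid synthesis, rose 1.36-fold, Uap1 of UDP-N-acetylglucosamine synthesis rose 1.32-fold and the PAPS synthase gene Papss2 rose 1.87-fold, with adjusted p of 0.00199, 0.0118 and 0.0118. Calls were lost for Slc35a2 without sorafenib replicate 3, for Slc35e1 without control replicate 3 or sorafenib replicate 1 or 3, and for Slc35g1 without control replicate 1 or 3 or any 1 sorafenib library (adjusted p up to 0.0931, 0.231 and 0.204 over all alternatives). Those of Uap1 and Papss2 were lost without sorafenib replicate 1 or 3 (up to 0.068 and 0.0696).

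Among the 3 nucleoside carriers 2 were called, both higher, beside 8.51% of all tested genes. Slc29a3, an equilibrative carrier of lysosomes, had 26.7, 26.3 and 26 CPM in the control libraries and 35.6, 34 and 34.2 CPM in the sorafenib libraries. Values within each group were close and the groups apart, with a 1.31-fold rise (log2 fold change 0.39 ± 0.07 SE, adjusted p = 0.00464). Slc28a2, which concentrates purine nucleosides with sodium, had 21.6, 18.4 and 18.9 CPM in the controls against 24.7, 27.1 and 27.1 CPM with sorafenib. All sorafenib libraries were higher, a 1.34-fold rise (adjusted p = 0.0106). Slc29a1, the equilibrative carrier of the plasma membrane, had a mean of 42.9 ± 1.78 CPM in the controls and of 41.9 ± 1.16 CPM with sorafenib (log2 fold change -0.03, 95% interval -0.20 to 0.13). Of 8 enzymes that phosphorylate or break down nucleosides 1 was called, beside 17.9% of all tested genes. It was the thymidine kinase gene Tk1, which rose 1.72-fold with a mean of 7.86 ± 0.683 CPM in the controls and of 13.5 ± 0.481 CPM with sorafenib (adjusted p = 8.13e-04). The Slc28a2 call was lost without sorafenib replicate 2 or 3 (adjusted p up to 0.0659 over all alternatives).

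Vitamin, choline and heme carriers had 2 rises and 2 falls among 9, beside 8.51% and 9.43% of all tested genes. Slc19a2, which brings thiamine into the cell, had 63.2, 69.9 and 70.1 CPM in the control libraries and 90.2, 93.1 and 87.9 CPM in the sorafenib libraries. Every sorafenib library lay above the controls, a 1.33-fold rise (log2 fold change 0.42 ± 0.07 SE, adjusted p = 0.00269). The 2 choline transporter-like genes differed in direction. Slc44a1 had 19.9, 21.5 and 18.9 CPM in the controls against 32.2, 28.9 and 32.3 CPM with sorafenib, a 1.55-fold rise, and Slc44a2 had 274, 265 and 283 CPM in the controls against 212, 226 and 227 CPM with sorafenib, a 1.23-fold fall (adjusted p of 8.72e-04 and 0.0104), with groups apart in both. Per length, Slc44a2 was the more abundant at 63.8 FPKM, beside 3.22 FPKM for Slc44a1. The riboflavin transporter gene Slc52a2 fell 1.26-fold at a low level, with a mean of 14.2 ± 0.539 CPM in the controls and of 11.3 ± 0.486 CPM with sorafenib (adjusted p = 0.0369).

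The folate carrier Slc19a1 had -0.14 (adjusted p = 0.337), the ascorbate transporter Slc23a2 0.01 (0.961) and the heme transporter Slc48a1 -0.08 (0.554) as log2 fold changes. Of 12 tested partner genes 1 was called, beside 17.9% of all tested genes. It was Fpgs, which adds glutamates to folate and fell 1.22-fold (adjusted p = 0.0308). Calls were lost for Slc44a2 without control replicate 3 or sorafenib replicate 1 or 3, for Slc52a2 without control replicate 1 or 3 or any 1 sorafenib library, and for Fpgs without control replicate 3 or any 1 sorafenib library (adjusted p up to 0.132, 0.247 and 0.129 over all alternatives).

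Of the 5 carriers left 1 was called, as lower, beside 9.43% of all tested genes. Slc22a17, a receptor for lipocalin 2 in the organic cation family, had 8.39, 7.99 and 7.49 CPM in the controls against 5.82, 5.37 and 6.38 CPM with sorafenib, a 1.36-fold fall (adjusted p = 0.0358) that was lost without control replicate 1 or 3 or any 1 sorafenib library (adjusted p up to 0.191). The carnitine importer Slc22a5 had a mean of 18.5 ± 0.919 CPM in the controls and of 17.4 ± 0.921 CPM with sorafenib (adjusted p = 0.536). Among 7 partner genes 2 were called, both higher, beside 8.51% of all tested genes. The lipid exporter gene Abcg1 and the organic anion transporter gene Slco3a1 rose 1.2-fold and 1.24-fold (adjusted p of 0.0347 and 0.0472). Both were lost without control replicate 3 or any 1 sorafenib library and Abcg1 also without control replicate 1 (adjusted p up to 0.18 and 0.177).

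By family, 15 of 37 had 0 called members by edgeR, among them Slc4, Slc9 and Slc20. Of the 28 carriers in these families 8 had an unadjusted p under 0.05 in edgeR, beside 4096 of all 13255 tested genes. Only 1 of the 28, Slc5a3, was called by DESeq2 and by limma-voom. There were 4 families that had members called in both directions: Slc25, Slc30, Slc39 and Slc44. A total of 12 families held a single member. Of the 105 members not called, 97 had a 95% interval that lay within a 1.5-fold change in either direction.

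**Figure D5:**
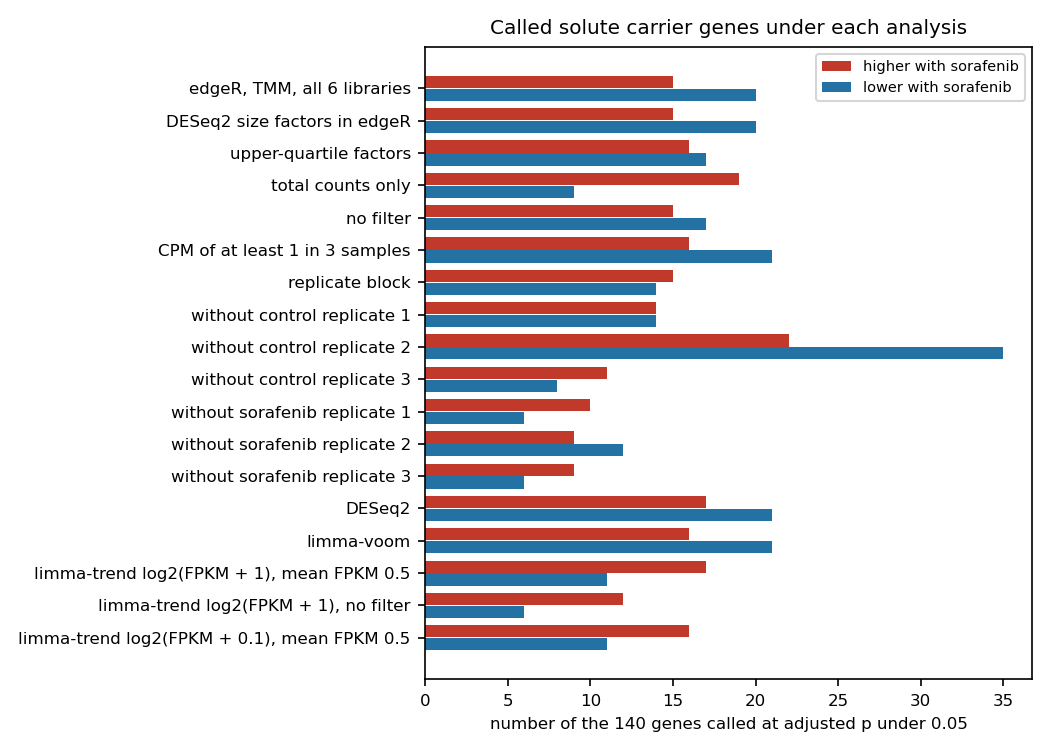
Number of the 140 carriers called higher (red) and lower (blue) past the 0.05 threshold (x axis) in each fit (y axis). Leaving out control replicate 2 gave the most calls, 22 and 35, and the count of falls dropped to 9 with total counts only and to 6 without sorafenib replicate 1 or 3.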

How the data were processed

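RNA was measured in 6 libraries, 3 of control and 3 of sorafenib-treated mouse Th9 cells, grouped by sample title. The authors deposited read counts per gene, in whole numbers, and FPKM. The submitters' processing notes name fastp, HISAT2, HTSeq, DESeq2 and R 3.2.0 and build GRCm39, without their roles. Strandedness and the handling of multiply matching reads are not given, which leaves genes that overlap or have a near copy uncertain. FPKM could be rebuilt from the deposited counts with 1 length per gene and the column total. It served for the level threshold and for comparing levels between genes.

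Of 21233 genes 13255 passed filterByExpr. CPM and tests used TMM factors. The test was edgeR's (version 4.0.16, in R 4.3.3) robust quasi-likelihood F test on the group, with 4 residual degrees of freedom (common biological variation 10.9%). Adjustment was by Benjamini and Hochberg over every tested gene, with calls at 0.05. SEs and 95% intervals came from the F statistic. Totals of 36981476 to 38126521 counts put 3 counts at 0.0787 to 0.0811 CPM. The test was checked on simulated counts with planted fold changes, drawn with the spread of each gene in these data. No simulated library was made to deviate, so the check does not cover the dependence on single libraries.

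The members, families, partner genes and markers were chosen with earlier results of these data known. Every called member may be named, and in each group up to 3 members with the highest FPKM and up to 2 uncalled ones with the smallest p. Other members are named for their cargo, after their values were seen. As alternatives, scaling was by DESeq2 size factors, by upper quartiles or by total counts, and the filter was dropped or set to 1 CPM in 3 samples. Others were the replicate number as a block, leaving out single libraries, DESeq2 1.42.0, limma-voom (limma 3.58.1), limma-trend on log2(FPKM + 1), unfiltered or at a mean FPKM of at least 0.5, and on log2(FPKM + 0.1), other FPKM thresholds for membership, an adjusted p of 0.01 and a 1.5-fold minimum. Promoter coordinates and sequences are RefSeq's on GRCm38.p6 and were used with no coordinate of the files. A few genes counted among the members, partner genes and calls are not reported here by name.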

Additional observations from a re-analysis of the deposited data

How the results depend on the processing

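Of the 35 called carriers, 14 kept direction and call in all 17 alternative fits, 21 lost the call in at least 1 and 0 changed direction; of 16 called partner genes 7 kept the call throughout and 9 lost it in at least 1. The count of all called genes, 2378, became 1423 on unfiltered FPKM, 1227 at an adjusted p of 0.01 and 1103 with a 1.5-fold minimum, and 1243 to 4325 with a library left out. Carriers called higher, 15, became 9 at an adjusted p of 0.01 and 6 with a 1.5-fold minimum, and 9 to 22 with a library left out. Carriers called lower, 20, became 9 with total counts only, 11 on log2(FPKM + 1) and 11 on log2(FPKM + 0.1) with the filter, 6 on unfiltered FPKM, 13 among members of at least 5 FPKM, 8 at an adjusted p of 0.01 and 5 with a 1.5-fold minimum, and 6 to 35 with a library left out. Slc25 carriers called higher, 3, became 1 at an adjusted p of 0.01 and 1 with a 1.5-fold minimum, and 1 to 4 with a library left out. Slc25 carriers called lower, 3, became 1 with upper-quartile factors, 0 with total counts only, 1 on log2(FPKM + 1) and 1 on log2(FPKM + 0.1) with the filter, 0 on unfiltered FPKM, 0 at an adjusted p of 0.01 and 0 with a 1.5-fold minimum, and 0 to 5 with a library left out. For settings other than stricter thresholds the cause was not tested.

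With the replicate number as a block 15 carriers were higher and 14 lower, and 3 Slc25 carriers were higher and 1 lower. The labels do not say what the numbers share, and deviations of same-numbered libraries correlated at -0.063, 0.152 and 0.102, so the block was not used as a pairing; control replicate 1 correlated best with sorafenib replicate 3.

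Over all 140 carriers, 37 changed sign in at least 1 fit, at log2 fold changes of -0.09 to 0.08, and 0 of these were called with all libraries or with the opposite sign by any tool run. By the naming rule 8 of them are listed here. Slc25a5 (-0.11) had -0.20 to 0.033 with a library left out. Slc25a3 (0.0086) had -0.031 to 0.092 with a library left out. Slc25a4 (-0.093) had -0.17 to 0.040 with a library left out. Slc39a7 (-0.0072) had 0.029 with upper quartiles, 0.072 with total counts, 0.0016 with no filter, 0.072 on log2(FPKM + 1), 0.072 on it unfiltered, 0.073 on log2(FPKM + 0.1) and -0.060 to 0.067 with a library left out. Slc35b1 (-0.042) had 0.038 with total counts, 0.034 on log2(FPKM + 1), 0.034 on it unfiltered, 0.036 on log2(FPKM + 0.1) and -0.082 to 0.038 with a library left out. Slc29a1 (-0.035) had 0.0018 with upper quartiles, 0.040 with total counts, 0.038 on log2(FPKM + 1), 0.038 on it unfiltered, 0.042 on log2(FPKM + 0.1) and -0.058 to 0.0067 with a library left out. Slc48a1 (-0.077) had 0.0014 with total counts, 0.0016 on log2(FPKM + 1), 0.0016 on it unfiltered and 0.0016 on log2(FPKM + 0.1). Slc10a7 (-0.053) had 0.020 with total counts, 0.018 on log2(FPKM + 1), 0.018 on it unfiltered and 0.024 on log2(FPKM + 0.1).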
